A study of Mus musculus with 10 samples.

Results

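The replication-dependent histone genes were taken as the rows of the deposited expression table whose symbol begins with Hist1h, Hist2h, Hist3h or Hist4h and whose level reached 1 FPKM (fragments scaled to transcript length and to library size) in at least 1 of 5 sorted cell fractions. Of 66 such rows, 43 met the floor, among 13595 rows of the table's 32361 that met it: 5 of the linker histone H1, 9 of H2A, 12 of H2B, 6 of H3 and 11 of H4. The symbols are the only thing the rule reads, and all 43 matched a RefSeq histone gene. These genes supply the histones that package newly copied DNA, and their transcription is tied to S phase of the cell cycle. Their mRNAs are known for ending in a short stem-loop in place of a poly(A) tail, although some of the genes also give polyadenylated forms in cells that do not divide or in differentiating cells. Replacement histone variants, by contrast, are mostly not tied to S phase and are mostly made from ordinary polyadenylated mRNAs.

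The fractions came from E14Tg2a.4, a line of mouse embryonic stem (ES) cells. One derivative carried fluorescent knock-in reporters at both Esrrb and Tbx3, which encode transcription factors of naive pluripotency. It was sorted into cells negative for both reporters (double-negative), cells positive for Esrrb and negative for Tbx3 (single-positive) and cells positive for both (double-positive). The other derivative carried a piggyBac transgene in which part of the Zscan4c promoter drives the reporter, and gave Zscan4-positive and Zscan4-negative cells. Zscan4 genes are known to switch on in the 2-cell embryo and, briefly, in a few ES cells. The promoter fragment, not the endogenous gene, defined that sort, and the 2 derivatives were not sorted for each other's reporters. Each of the 5 fractions has 2 libraries by the labels, 10 in all, collected on different days.

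The table holds 1 merged value per row and fraction, so no value below has an SD, a test or a known read depth, and no difference has a replicate check. A difference is that of log2(FPKM + 1), which understates the fold of low rows, and a row was called at 2-fold or more on that scale. Column totals ran between 507495 and 552117 FPKM. The sorted genes followed the labels: Zscan4c stood at 120 FPKM in Zscan4-positive and 0.255 in Zscan4-negative cells, Esrrb at 43.3, 177 and 243 FPKM and Tbx3 at 0.638, 1.75 and 12.6 FPKM in double-negative, single-positive and double-positive cells. The double-negative and single-positive columns shared a profile of genes foreign to ES cells: 15 fibroblast markers, such as Col1a1, summed to 2055, 1456 and 34.1 FPKM in double-negative, single-positive and double-positive cells, and to 39.9 and 27.1 FPKM in Zscan4-positive and Zscan4-negative cells. The 15 T-lineage markers, such as Cd3g, summed to 617, 440, 40.2, 26.8 and 29.9 FPKM in the same order of fractions. None of the 43 histone rows was among the 804 rows of that profile, taken widely. Hist2h2be fell just outside its limits, with 1.04, 0.763, 0.104, 0.268 and 0.281 FPKM in the same order of fractions. Hist1h4j did so too, with 1.27, 0.585, 0, 0.182 and 0 FPKM. Defining ES cell genes were high throughout, with Pou5f1 between 1987 and 2762 FPKM.

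The stem-loop is shown first, because it is the feature the class is named for and bears on how an mRNA library can capture these genes. The letters of the 16-base stem and loop were found in the GENCODE transcripts (GRCm38) of 28 of the 43 genes, against 0.212% of 141767 transcripts of all kinds. For several of the 15 others the transcript is shorter than the deposited row, as for Hist1h4k (312 and 409 bases) and Hist1h2ak (393 and 536). For others, such as Hist1h3g (530 and 492 bases), it is longer. A site past the end of a transcript could not be found, so the genes with a short transcript may still have a stem-loop. For those with a longer transcript the letters were not matched, and why was not examined. The 6 lines below give sites of strongly represented genes with 5 bases on either side, read 5′ to 3′ on the strand of the gene; capitals mark the stem and loop. The positions of the capitals in that order are chr13:23739512-23739527 (+), chr13:23570668-23570683 (-), chr13:22036300-22036315 (+), chr13:23745047-23745062 (-), chr13:23757366-23757381 (+) and chr13:22040966-22040981 (-).
Hist1h1c: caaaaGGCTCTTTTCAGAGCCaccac
Hist1h2ae: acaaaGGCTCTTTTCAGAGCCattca
Hist1h2bk: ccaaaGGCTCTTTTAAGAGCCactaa
Hist1h3c: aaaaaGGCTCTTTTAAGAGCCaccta
Hist1h4b: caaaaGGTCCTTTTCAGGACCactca
Hist1h4i: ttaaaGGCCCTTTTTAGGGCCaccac

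The 28 sites took 6 forms. The stem GGCTCT with its partner AGAGCC was carried by 19 of them, which were all the H1, H2A, H2B and H3 genes with a site. The 9 H4 sites had GGCCCT or GGTCCT in that place. For 23 of the 27 genes with a single exon, the deposited row ended within 100 bases after the loop, as the mature mRNA without a tail does. In 12 of the 28 genes the GENCODE transcript ended within 100 bases after the loop. In 16 it ran on, the form that can carry a poly(A) tail. Whether the libraries were selected for poly(A) is not given in the sources used here, so which of these forms a given FPKM value counted cannot be told apart.

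The promoters that feed these genes differ by class as well. The windows below, from RefSeq on GRCm38.p6, cover the 150 bases before the annotated start of the H1, H2A, H3 and H4 gene that were highest in Zscan4-positive cells; capitals mark, on either strand, the 5 motifs counted in the paragraph after them. Their positions are chr13:23738657-23738806 (+), chr13:23571221-23571370 (-), chr13:23745522-23745671 (-) and chr13:22041363-22041512 (-).
Hist1h1c: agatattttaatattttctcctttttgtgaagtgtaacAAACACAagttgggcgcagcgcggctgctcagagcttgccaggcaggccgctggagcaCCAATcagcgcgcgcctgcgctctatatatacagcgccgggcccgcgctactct
Hist1h2ae: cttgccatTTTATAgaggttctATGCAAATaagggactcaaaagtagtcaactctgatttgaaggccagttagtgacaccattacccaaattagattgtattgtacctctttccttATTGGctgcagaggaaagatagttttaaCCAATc
Hist1h3c: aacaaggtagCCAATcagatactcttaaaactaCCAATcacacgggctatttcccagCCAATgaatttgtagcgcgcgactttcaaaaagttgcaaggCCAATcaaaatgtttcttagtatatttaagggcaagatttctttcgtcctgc
Hist1h4i: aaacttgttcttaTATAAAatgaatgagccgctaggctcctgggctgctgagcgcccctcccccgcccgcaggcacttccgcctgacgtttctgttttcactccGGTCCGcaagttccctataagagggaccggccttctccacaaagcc

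Windows of 300 bases, 250 before and 50 after the start, were on hand for 39 of the 43 genes and for 27025 genes in all. CCAAT, the letters read by the NF-Y factor, stood on either strand in 5 of 5 H1, 9 of 9 H2A, 10 of 10 H2B and 5 of 5 H3 windows but in 3 of 10 H4 windows, against 37.9% of all windows. GGTCCG, part of the H4 element that HINFP binds in human cells, was in 9 of 10 H4 windows and in 2 of the other 29 (8.39% of all). AAACACA, part of the H1 promoter's upstream box, was in 4 of 5 H1 windows and in 1 of the other 34 (7.14% of all). The octamer ATTTGCAT, read by POU factors, was in 5 of 9 H2A and 4 of 10 H2B windows and in none of the 20 H1, H3 and H4 windows (1.75% of all). TATAAA was found in 22 of the 39 (14.2% of all). Windows of head-to-head H2A and H2B genes overlap, so 1 site can be counted for both classes. Hist1h2ae and Hist1h2bg, for example, have 179 bases between them, and both were counted as holding the octamer. The octamer and TATAAA marked for Hist1h2ae, both as the reverse complement, lie in this shared stretch and are not particular to Hist1h2ae. None of these 5 motifs overlaps another by its letters within the windows shown. The motifs describe the letters there and say nothing about binding in these cells.

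The histone rows were low in this table. The 43 rows summed to 95.6, 85.9 and 76.5 FPKM in double-negative, single-positive and double-positive cells, and to 237 and 71.1 FPKM in Zscan4-positive and Zscan4-negative cells. Only 12 of the 43 reached 5 FPKM anywhere. The floor was met in all 5 fractions by 17 rows and in a single fraction by 11, of which 8 met it in Zscan4-positive cells (Hist1h2ab, Hist1h2bb, Hist1h2be, Hist1h2bh, Hist1h4a, Hist1h4c, Hist2h4 and Hist4h4) and 3 in double-negative cells (Hist2h2ac, Hist2h2be and Hist1h4j). The rows just inside the floor were Hist2h2be, Hist1h2be and Hist2h2ac, with highest values of 1.04, 1.08 and 1.09 FPKM. Just outside it were Hist1h2bm, Hist1h2ad and Hist2h3b, at 0.870, 0.714 and 0.649 FPKM. Genes of 1 class have near-identical coding sequences, so the split of reads between copies is uncertain and a class sum is firmer than any single row.

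**Figure D1:**
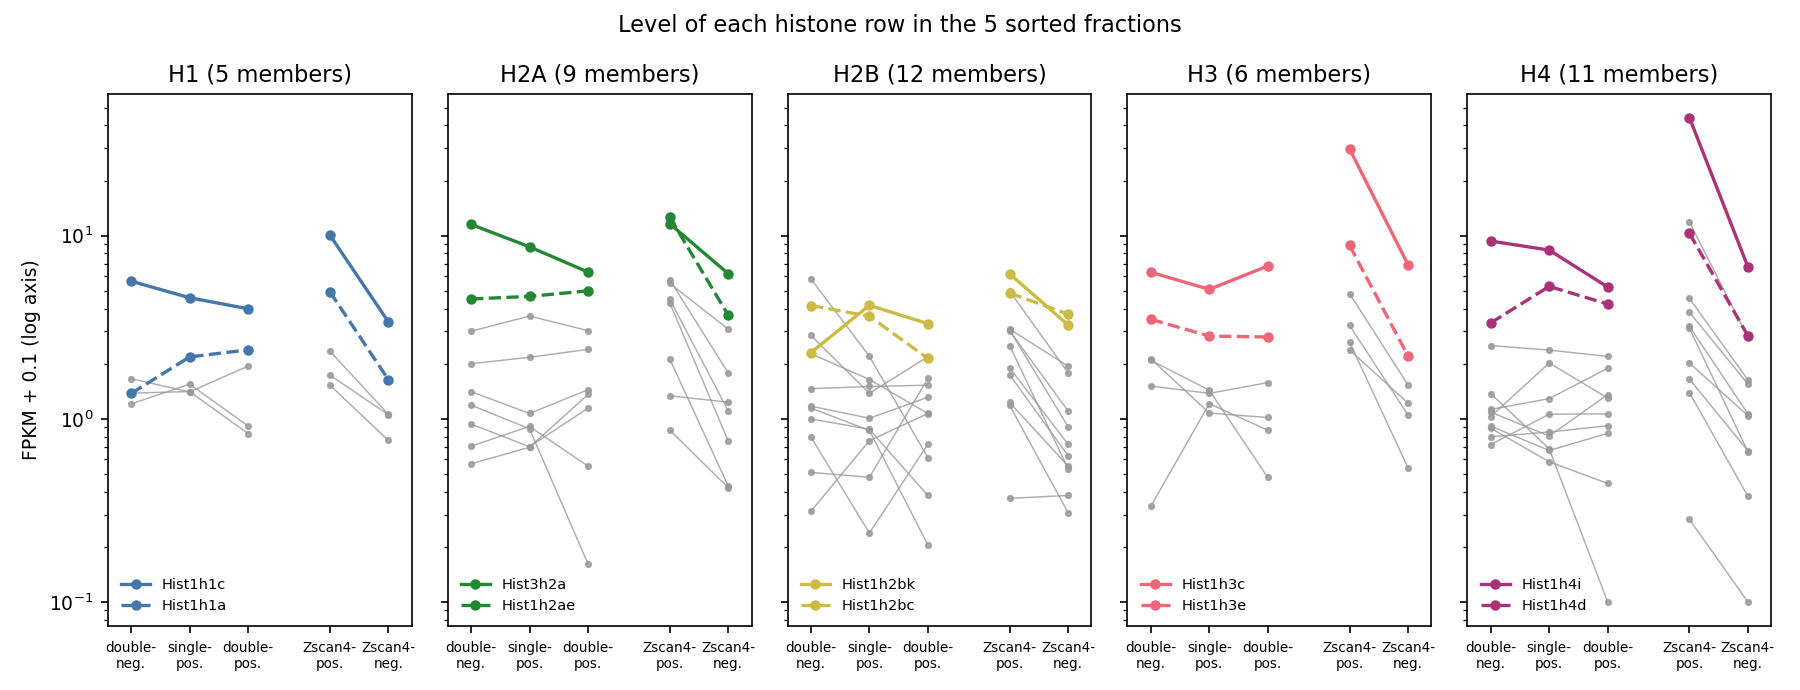
FPKM (plus 0.1, log axis) of each histone row in the 5 fractions, 1 panel per class; points are the single merged values, lines join the fractions of 1 reporter line, and the members with the highest and next highest mean are coloured. All rows but Hist2h2be are higher in Zscan4-positive than in Zscan4-negative cells, and the topmost, Hist1h4i, has 44.0 and 6.66 FPKM there.

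Histone transcripts of all 5 classes were higher in Zscan4-positive than in Zscan4-negative cells. Of the 43 rows, 42 were above 0 in difference, 21 passed 2-fold and none was lower by 2-fold; across all rows compared, 3.46% passed 2-fold upward and 0.875% downward. The median difference was 0.97 for the histone rows and -0.01 for all rows. In bulk RNA of a fraction, more cells that hold histone mRNA and more of it per cell cannot be told apart. Since 8 rows met the floor only in Zscan4-positive cells and therefore had to be higher there, the count was repeated on rows that reached 1 FPKM in a fraction of the double-reporter line. Of 35 such histone rows, 19 passed 2-fold and the median was 1.10, where 2.15% of all such rows passed. With no floor, the median over all 66 rows was 0.66; the 23 rows this adds are too low to reach 2-fold on the scale used. On FPKM with no pseudocount, 35 of the 43 were at least 2-fold higher and none 2-fold lower (7.33% and 2.63% of all rows). The highest of the 5 fractions was Zscan4-positive for 38 of the 43 rows, double-negative for 4 and double-positive for 1. Of the 38, 8 met the floor only in Zscan4-positive cells, and 3 of the 4 met it only in double-negative cells. For these rows the floor set the highest fraction. The same count was not made over all rows, so it has no background share.

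By class, summed FPKM was 4.63-fold higher for H4 in Zscan4-positive cells (85.2 against 18.4 FPKM in Zscan4-negative cells). It was 3.97-fold higher for H3 (51.1 against 12.9 FPKM), 2.72-fold for H1 (20.1 against 7.40 FPKM), 2.68-fold for H2A (47.7 against 17.8 FPKM) and 2.25-fold for H2B (32.9 against 14.6 FPKM). By these sums H3 and H4, the histones of the central tetramer, came before the others. By the median difference of their rows the order was H3 (1.26), H2A (1.18), H4 (1.06), H2B (0.79) and H1 (0.73). The H2A and H4 medians were the values of Hist1h2ab and Hist1h4a. Both rows met the floor only in Zscan4-positive cells and so had to be higher there. The place of H2A before H4 is thus no separate result. Without the highest member of each class the ratios were 3.51 for H4, 3.55 for H3, 2.47 for H1, 3.09 for H2A and 2.33 for H2B, so H3 and H4 stayed ahead but changed places. H4 made up 35.9% of the histone sum in Zscan4-positive and 25.8% in Zscan4-negative cells, and H2B made up 13.9% and 20.6%. With 1 value per fraction, whether the classes differ in their ratio was not tested.

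**Figure D2:**
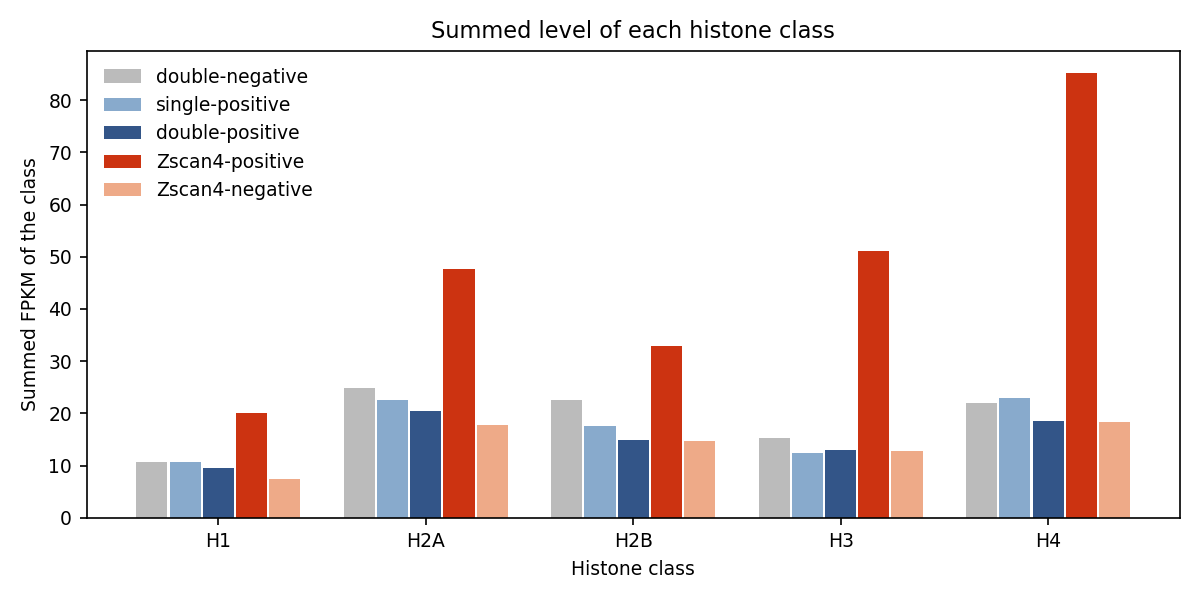
Summed FPKM of each histone class (bars, 1 merged value each, no error) in the 5 fractions. In every class the Zscan4-positive bar is the tallest, and the H4 bar reaches 85.2 FPKM against 18.4 in Zscan4-negative cells.

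The H1 rows code for linker histones, which bind DNA where it enters and leaves the nucleosome. Hist1h1c, which encodes H1.2, had 9.98 FPKM in Zscan4-positive and 3.29 in Zscan4-negative cells, against 5.54, 4.48 and 3.89 in double-negative, single-positive and double-positive cells, a difference of 1.36 in the Zscan4 sort. Hist1h1a had 4.85 and 1.54 FPKM in Zscan4-positive and Zscan4-negative cells and 1.27, 2.08 and 2.28 in the double-reporter fractions from double-negative to double-positive (1.20). These were the 2 of 5 H1 rows past 2-fold. Hist1h1b had 2.24 and 0.959 FPKM, Hist1h1e 1.43 and 0.663, and Hist1h1d 1.63 and 0.952 in Zscan4-positive and Zscan4-negative cells, with differences of 0.73, 0.55 and 0.43. Hist1h1d was the 1 histone row whose highest value, 1.84 FPKM, was in double-positive cells.

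H2A and H2B pair as dimers on the outside of the core particle. Among 9 H2A rows, 5 passed 2-fold. Hist1h2ae had 12.5 and 3.58 FPKM in Zscan4-positive and Zscan4-negative cells and 4.41, 4.56 and 4.90 in double-negative, single-positive and double-positive cells (1.56). Hist1h2ai had 5.65 and 1.68 FPKM in the Zscan4 fractions and 1.90, 2.07 and 2.29 in the other line (1.31). Hist1h2ah had 4.21 and 0.657 FPKM (1.65), which was a 6.40-fold ratio on FPKM itself, and Hist1h2ak 4.398 and 1.005 (1.43). Each of these 4 genes had its highest value in Zscan4-positive cells. Hist1h2ab, at 2.02 and 0.330 FPKM, passed as well (1.18), but met the floor only in Zscan4-positive cells. Hist1h2ag, with 5.38 and 2.99 FPKM, had a smaller difference of 0.68, and Hist1h2af, with 1.23 and 1.13 FPKM, had almost none (0.07).

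Hist3h2a had 11.5 and 6.10 FPKM in Zscan4-positive and Zscan4-negative cells (0.82, short of 2-fold) and 11.4, 8.59 and 6.23 in double-negative, single-positive and double-positive cells, so its value in double-negative cells was close to its highest. Its deposited row spans 23366 bases where the RefSeq gene spans 508, so the row covers more than the histone gene.

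On the log2(FPKM + 1) scale, which understates the fold of low rows, H2B had the smallest share of rows past 2-fold, 3 of 12. They were Hist1h2bp (2.41 and 0.433 FPKM in Zscan4-positive and Zscan4-negative cells, difference 1.25), Hist3h2ba (4.87 and 1.68, 1.13) and Hist1h2bj (2.95 and 0.805, 1.13). Hist1h2bk, the highest H2B row by mean, had 6.09 and 3.15 FPKM in the Zscan4 fractions and 2.2005, 4.07 and 3.21 in double-negative, single-positive and double-positive cells (0.77). Hist1h2bc, whose annotated transcript is spliced, had 4.75 and 3.63 FPKM in the Zscan4 fractions and 4.05, 3.53 and 2.04 in the other line (0.31). Hist2h2bb followed with 2.99 and 1.84 FPKM (0.49). Hist2h2be, with 0.268 and 0.281 FPKM, was the 1 row with a difference under 0 (-0.02). The 3 rows that met the floor in Zscan4-positive cells alone, Hist1h2bb, Hist1h2be and Hist1h2bh, had 1.798 and 0.625, 1.08 and 0.207, and 1.13 and 0.452 FPKM there and in Zscan4-negative cells. The row of Hist1h2be is 37455 bases long.

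H3 and H4 form the tetramer at the centre of the nucleosome. Of 6 H3 rows, 5 passed 2-fold. Hist1h3c had 29.7 and 6.85 FPKM in Zscan4-positive and Zscan4-negative cells and 6.22, 4.99 and 6.73 in double-negative, single-positive and double-positive cells (1.97). Hist1h3e had 8.76 and 2.11 FPKM in the Zscan4 fractions and 3.39, 2.73 and 2.70 in the other line (1.65). Both stood well above their values in the 4 other fractions. Hist1h3g had 4.73 and 1.43 FPKM (1.24), Hist1h3a 3.14 and 0.949 (1.09) and Hist1h3i 2.53 and 0.440 (1.29). Hist1h3h, the row that did not pass, had 2.28 and 1.12 FPKM (0.63). Hist1h3c alone made up 58.1% of the H3 sum in Zscan4-positive and 53.1% in Zscan4-negative cells.

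H4 is the most uniform class, since its genes encode the same protein. Hist1h4i had the largest difference of any histone row: 44.0 and 6.66 FPKM in Zscan4-positive and Zscan4-negative cells and 9.25, 8.24 and 5.14 in double-negative, single-positive and double-positive cells (2.55). Hist1h4b had 11.8 and 2.69 FPKM in the Zscan4 fractions and 2.41, 2.27 and 2.09 in the other line (1.79). The deposited row of Hist1h4b spans 1799 bases where the RefSeq gene spans 450, so it covers more than the histone gene. Hist1h4d had 10.2 and 2.74 FPKM in the Zscan4 fractions and 3.24, 5.19 and 4.13 in the other line (1.58). Together with Hist1h4h (4.44 and 1.53 FPKM, 1.10), Hist1h4k (3.02 and 0.561, 1.37) and Hist1h4a (3.09 and 0.965, 1.06) they made 6 of 11 past 2-fold. Hist1h4i held 51.6% of the H4 sum in Zscan4-positive and 36.2% in Zscan4-negative cells. The 3 other H4 rows that met the floor in Zscan4-positive cells alone had smaller differences: Hist1h4c 0.84 (1.29 and 0.277 FPKM), Hist2h4 0.70 (1.55 and 0.569) and Hist4h4 0.59 (1.92 and 0.939). Hist1h4j had 0.182 FPKM in Zscan4-positive cells and was listed at 0 in Zscan4-negative cells, and its row ends before the stem-loop.

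By place, most of the rows lie in the Hist1 cluster on chromosome 13 (chr13:21715713-23764412, mm10, as deposited and counted from 1). It holds 36 of the 43 rows in 2 blocks 1487386 bases apart. The block with the lower coordinates had 14 rows, of which 8 passed 2-fold (median 1.19), and summed to 87.0 FPKM in Zscan4-positive and 20.99 in Zscan4-negative cells. The block with the higher coordinates had 22 rows, of which 12 passed (median 1.07), and summed to 126 and 38.4 FPKM. Of the 4 Hist2 rows on chromosome 3 none passed (median 0.46). Of the 2 Hist3 rows on chromosome 11 Hist3h2ba passed (median 0.97), and Hist4h4, on chromosome 6, had 0.59. Whether the clusters differ was not tested. Of 137 other rows between the ends of the Hist1 cluster 6 met the floor: Zfp184, Prss16, Zfp322a, Abt1, C230035I16Rik and Hfe. They lay between -0.38 and 0.25, and with 3.46% of all rows higher by 2-fold, none among 6 is no departure from the background.

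**Figure D3:**
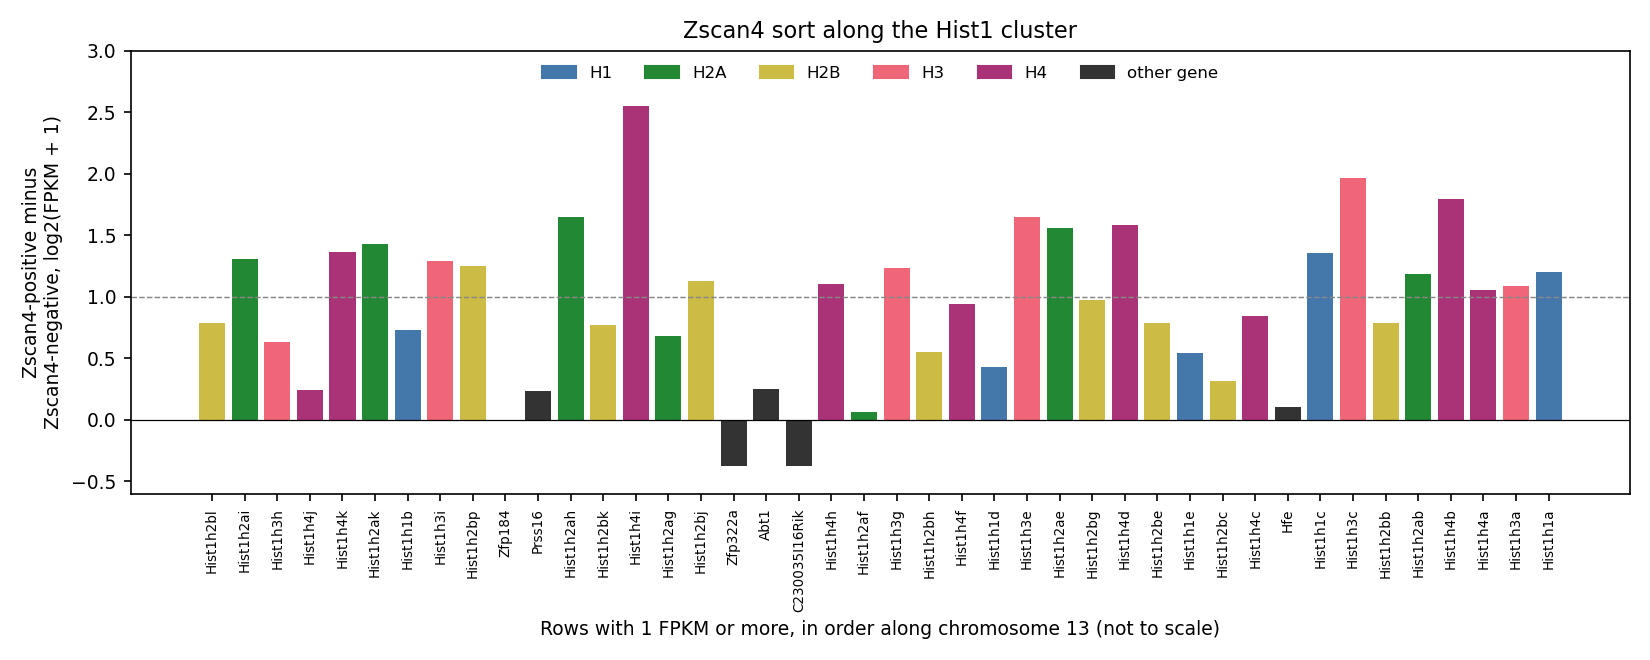
Zscan4-positive minus Zscan4-negative difference in log2(FPKM + 1) for the 42 rows compared in the Hist1 cluster, in order along chromosome 13 and not to scale; colours give the class, black bars are genes that are not histones and the dashed line is 2-fold. Histone bars of either block reach past the line, while the 6 black bars stay between -0.38 and 0.25.

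H2A and H2B genes often lie head to head and share a promoter. There were 11 such pairs, with 163 to 280 bases between the RefSeq genes, and in 5 of them both genes met the floor. In 4 of these 5 the H2A gene had the larger difference: Hist1h2ae and Hist1h2bg (1.56 and 0.97), Hist1h2ah and Hist1h2bk (1.65 and 0.77), Hist1h2ai and Hist1h2bl (1.31 and 0.79), and Hist2h2ac and Hist2h2be (0.42 and -0.02). Hist1h2ag and Hist1h2bj went the other way (0.68 and 1.13). The window of Hist1h2ae printed above lies within the 179 bases between it and Hist1h2bg. The 12 genes whose GENCODE transcript ended within 100 bases after the loop had a median difference of 1.09, with 7 past 2-fold. The 16 whose transcript ran on had 0.83, with 6 past 2-fold. Both groups hold rows that met the floor only in Zscan4-positive cells, such as Hist1h2ab among the 12 and Hist1h4c among the 16. The scale understates the fold of such low rows, and whether the 2 groups differ was not tested.

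None of the listed genes that make, process and deposit these histones passed 2-fold in the Zscan4 sort. With 3.46% of all rows higher and 0.875% lower by 2-fold, none in lists this small is no departure from the background. Of 18 genes of histone mRNA transcription and 3′ end processing, none passed and the median was -0.08. Slbp, whose protein binds the stem-loop, had 51.5 FPKM in Zscan4-positive and 63.7 in Zscan4-negative cells (-0.30), and Npat, the coactivator of histone genes, had 10.2 and 10.6 (-0.05). Hinfp, the H4 promoter factor, had 9.21 and 7.49 FPKM (0.27), and Mif4gd and Srrt, the highest of the list, had 111 and 101 and 90.4 and 110 FPKM. Of 19 histone chaperones and partners none passed (median -0.05). Nasp, which stores H3 and H4, had 363 and 375 FPKM, and Chaf1b, a subunit of the assembly factor CAF-1, was farthest from 0 with 53.7 and 93.1 FPKM (-0.78). None of 11 replacement variants passed either (median 0.13): H2afx had 489 and 343 FPKM (0.51), H3f3b 310 and 280 (0.15) and H1fx, at 82.5 and 50.2, had the largest difference (0.70).

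None of the listed genes of the cell cycle phases passed 2-fold, again no departure from the shares of all rows (3.46% higher and 0.875% lower). Of 23 S-phase genes, such as the helicase subunit gene Mcm2 (212 and 214 FPKM in Zscan4-positive and Zscan4-negative cells) and the replication clamp gene Pcna (219 and 209), none passed and the median was -0.12. Of 14 mitotic genes, such as Cdc20 (273 and 240 FPKM) and Top2a (187 and 177), none passed and the median was 0.18. The 10 rows of 2-cell-state genes compared all passed upward (3.46% of all rows), with a median of 6.20. They include Zscan4 genes, and part of the Zscan4c promoter drove the sorted reporter. Rows such as Zscan4c also met the floor in Zscan4-positive cells alone. Their direction was thus set in part by the sort and the floor, and is no separate result.

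RNAs that lack a poly(A) tail for other reasons were looked at too, in a list chosen after values were seen. Of 6 that met the floor, 4 were higher by 2-fold in Zscan4-positive cells (3.46% of all rows). The median difference of the 6 was 1.30, beside 0.97 for the histone rows. Rnu12, 1 of the 4, met the floor only in Zscan4-positive cells and so had to be higher there. Terc, the telomerase RNA, had 22.8 FPKM in Zscan4-positive and 1.49 in Zscan4-negative cells. Rprl3, an RNase P RNA-like gene, had 7.56 and 2.08, Rpph1, the RNase P RNA, had 5.37 and 1.92, and Rnu12, a small nuclear RNA, had 5.73 FPKM in Zscan4-positive cells and was listed at 0 in Zscan4-negative cells. The ribosomal precursor Rn45s had 735 and 417 FPKM (0.82) and Rmrp had 8.77 and 7.45 (0.21). These moved in the same direction as the histone rows, and the part of library composition in the histone difference was not tested.

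**Figure D4:**
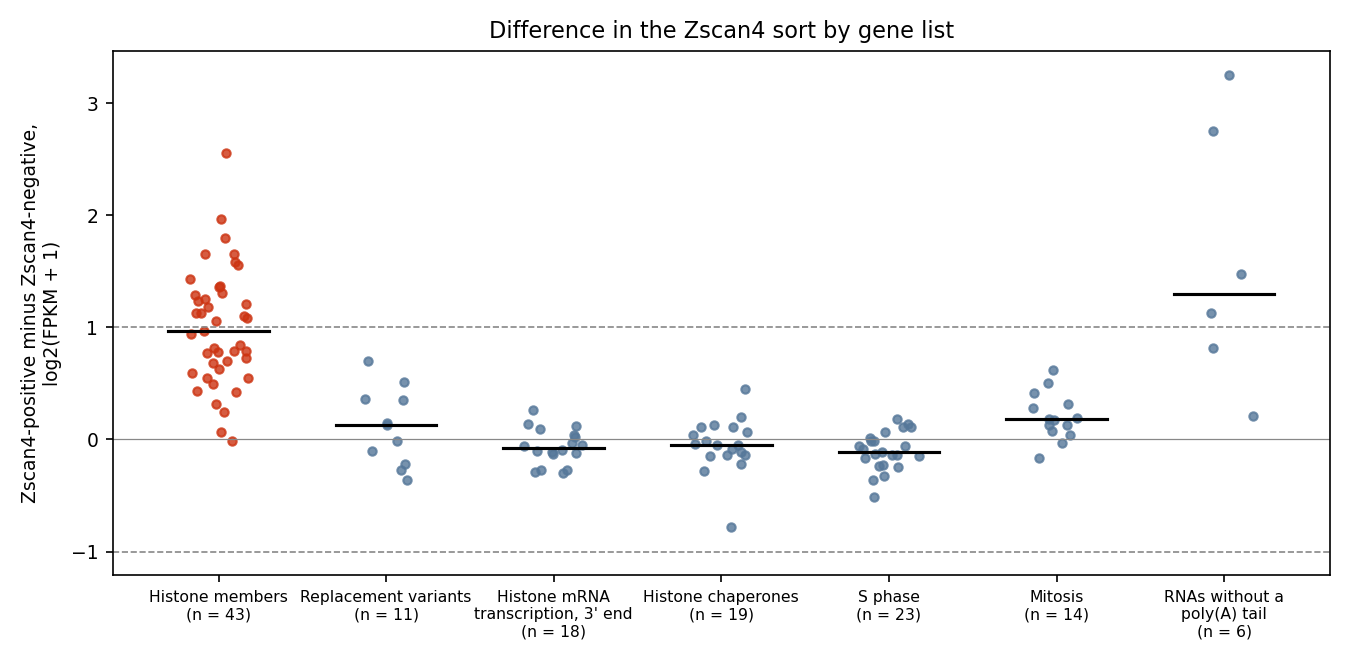
Zscan4-positive minus Zscan4-negative difference in log2(FPKM + 1), 1 point per row, for the histone rows and 6 other lists; black bars are medians and dashed lines are 2-fold. The median is 0.97 for the histone rows and 1.30 for the RNAs without a poly(A) tail, and those of the 5 other lists lie between -0.12 and 0.18.

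Across the Esrrb and Tbx3 states few histone rows passed 2-fold, in shares that were mostly near or below those of all rows on the log2(FPKM + 1) scale. In single-positive against double-negative cells no histone row was higher by 2-fold and 1 was lower (1.82% and 1.43% of all rows), with a median of -0.12. In double-positive against single-positive cells there were again 0 higher and 1 lower (0.346% and 6.94% of all rows), with a median of -0.04. In double-positive against double-negative cells 0 were higher and 3 lower (3.81% and 12.2% of all rows), and the median was 0.01. Hist1h4j, 1 of the 3, met the floor only in double-negative cells and so had to be lower; among rows that reached 1 FPKM in a Zscan4 fraction, 2 of 40 were lower (7.46% of all such rows). On FPKM with no pseudocount, 3 were 2-fold higher and 5 lower in single-positive against double-negative cells (3.53% and 4.12% of all rows). On that scale 3 were higher and 6 lower in double-positive against single-positive cells (1.7% and 11.2%), and 4 higher and 9 lower in double-positive against double-negative cells (6.27% and 17.2%). These 3 comparisons share columns, so they are not separate observations. The part of the fibroblast and T-lineage profile given above in the histone values was not tested.

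The 1 row lower in both steps was Hist3h2ba, an H2B gene of the small Hist3 cluster. It had 5.71, 2.09 and 0.513 FPKM in double-negative, single-positive and double-positive cells, with differences of -1.12, -1.03 and, over both steps, -2.15. Its level in Zscan4-positive cells, 4.87 FPKM, was back near that of double-negative cells. The other 2 lower rows were Hist1h3a (1.99, 1.33 and 0.378 FPKM, -1.12) and Hist1h4j (1.27 and 0.585 FPKM, and listed at 0 in double-positive cells, -1.18); they were named for their call, after their values were seen. Hist2h2ac and Hist2h2be, the head-to-head pair of the Hist2 cluster, ran alike: 1.09, 0.781 and 0.0614 FPKM for Hist2h2ac and 1.04, 0.763 and 0.104 FPKM for Hist2h2be, short of 2-fold at -0.98 and -0.89.

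By class, sums in double-negative, single-positive and double-positive cells were 10.8, 10.6 and 9.55 FPKM for H1, 24.9, 22.5 and 20.5 for H2A, 22.6, 17.5 and 14.98 for H2B, 15.3, 12.4 and 12.97 for H3, and 22.0, 22.9 and 18.5 for H4. Every class sum was thus lower in double-positive cells than in double-negative ones, least for H1 (0.888-fold) and most for H2B (0.664-fold). Without the highest member of each class, H1, H2A and H4 were instead 1.09, 1.06 and 1.04-fold higher in double-positive cells, so this direction rested on Hist1h1c, Hist3h2a and Hist1h4i. H2B and H3 kept the lower sum in double-positive cells, at 0.578-fold and 0.689-fold. The H2B sum rested largely on Hist3h2ba: without it the sums were 16.86, 15.44 and 14.47 FPKM, a double-positive level 0.858-fold that of double-negative cells and no longer the lowest ratio of the 5 classes.

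Among the related genes, H1f0, the linker variant of resting and differentiated cells, was lower by 2-fold in double-positive cells than in double-negative ones (45.8, 36.5 and 19.1 FPKM from double-negative over single-positive to double-positive cells, -1.22). Mif4gd, whose protein partners Slbp in histone mRNA translation, was higher (58.5, 112 and 129 FPKM, 1.13). H2afx came close, at 233, 331 and 466 FPKM (1.00 after rounding and not called). None of the 19 chaperones, 23 S-phase genes and 14 mitotic genes passed in this comparison, with medians of 0.16, 0.19 and 0.45. Of all rows, 3.81% were higher by 2-fold and 12.2% lower.

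**Figure D5:**
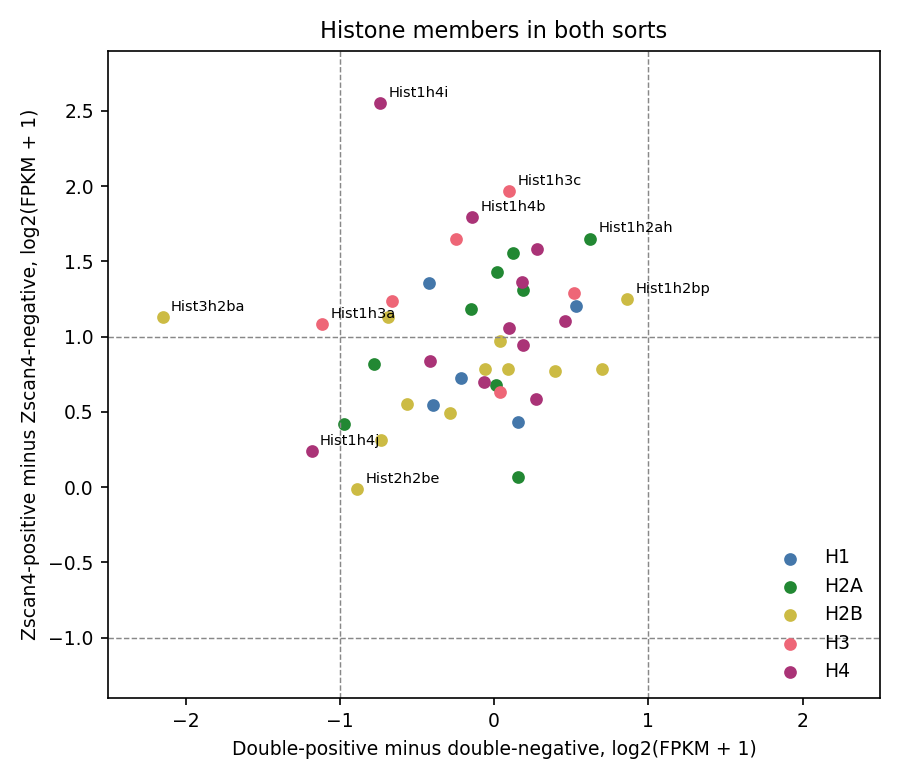
Difference of each histone row in log2(FPKM + 1), double-positive minus double-negative across and Zscan4-positive minus Zscan4-negative up; colours give the class and dashed lines are 2-fold. Points spread on both sides of 0 across the page, with Hist3h2ba at -2.15 on the left, and lie above 0 upward for all but Hist2h2be at -0.02.

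Double-positive and Zscan4-negative cells come from different reporter lines, so line and state cannot be told apart between them, and their values are given to set the 2 lines side by side. No histone row passed 2-fold in either direction in double-positive against Zscan4-negative cells (0.743% and 0.816% of all rows), the median was 0.12 and the extremes were -0.83 for Hist3h2ba and 0.84 for Hist1h2bp. The class sums of these 2 fractions were 9.55 and 7.40 FPKM for H1, 20.5 and 17.8 for H2A, 14.98 and 14.64 for H2B, 12.97 and 12.89 for H3, and 18.5 and 18.4 for H4.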

How the data were processed

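A total of 10 libraries, 2 for each of 5 sorted fractions, were made from total RNA extracted with a Qiagen RNeasy kit, using NEB's E7530 kit (NEBNext Ultra RNA), per the labels' protocols. Sequencing was on a HiSeq2500. The submitters' processing notes name bcl2fastq 1.8.4, Cuffdiff 2.2.1, Cufflinks and TopHat2 2.0.14, and the build mm10. Whether poly(A) selection was done, the strand setting, the annotation and how replicates were merged: not given in the sources used here. The authors deposited FPKM, 1 merged value per row and fraction, so the count tests first planned could not be run and depth is unknown.

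Rows with 1 FPKM or more in a fraction were compared as log2(FPKM + 1) differences, called at 2-fold. Members and lists were chosen with earlier results of these data known. In each class the text names the 4 rows with the highest mean, rows past 2-fold with 5 FPKM or more in the higher fraction, and rows that met the floor in 1 fraction. The other members named, and list genes beyond the 2 highest and those past 2-fold, were chosen after their values were seen. Promoters came from RefSeq (GRCm38.p6) and transcripts from GENCODE M21. Python 3.11.15 with pandas 2.3.3, numpy 2.4.6 and matplotlib 3.10.9 was used, and the calls were tested on simulated data. Folds were planted there only in rows with a mean of 5 FPKM or more, so their detection in lower rows was not checked. Alternatives covered the pseudocount, floor, scaling, summed rows, the foreign profile and the highest member.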

Additional observations from a re-analysis of the deposited data

How the results depend on the processing

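The 21 histone rows past 2-fold in the Zscan4 sort were again 21 with columns scaled to equal totals or by the median ratio. Leaving out the floor, summing rows of 1 symbol and dropping the foreign profile could not change this count, since no histone row under 1 FPKM can reach 2-fold on log2(FPKM + 1), no member symbol is repeated and none lies in the profile. The median difference lay between 0.66 and 1.496 over the alternatives run. With a pseudocount of 0.1 the count was 33 (6.14% of all rows), and a floor of 5 FPKM left 12 histone rows, of which 9 passed (2.99% of all rows). The pseudocount of 0.1 gave 2 higher and 4 lower in single-positive against double-negative cells (3.15% and 3.45% of all rows) and 2 higher and 6 lower in double-positive against single-positive cells (1.13% and 10.7%). It gave 4 higher and 9 lower in double-positive against double-negative cells (5.66% and 16.4%), and 4 higher and 3 lower in double-positive against Zscan4-negative cells (2.51% and 2.49%). In double-positive against double-negative cells a floor of 5 FPKM left 1 lower row of 12 (9.6% of all rows). With columns scaled to equal totals Hist2h2ac also passed there (-1.016). No histone difference called changed sign under these alternatives. Repeating counts on rows above the floor outside a comparison, and leaving out Hist3h2ba, were chosen after seeing the data.

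No paired analysis was possible because each fraction has 1 merged value, and for the same reason leaving out replicates was not run. Depth is unknown, so how far values near 1 FPKM rest on few reads could not be seen.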

Other observations

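Among the 23 histone rows that stayed under 1 FPKM everywhere, 6 were at 0 in every fraction. Hist1h2aa and Hist1h2ba, the testis-type H2A and H2B genes that lie head to head, had 0.442 and 0.180 FPKM in Zscan4-positive cells and were listed at 0 in Zscan4-negative, double-negative and double-positive cells; Hist1h2aa had 0.0789 FPKM and Hist1h2ba 0 in single-positive cells. Hist1h1t, the testis-type H1 gene, had 0.128 FPKM in Zscan4-positive and 0.0888 in Zscan4-negative cells. Hist1h3f had 0.636 and 0.0444 FPKM in the Zscan4-positive and Zscan4-negative fractions, and Hist1h3b had 0.601 FPKM and was listed at 0 there. Values this low may rest on a few reads, and their depth is unknown.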
